A study of Rattus norvegicus with 6 samples.

Results

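Fatty acid and cholesterol synthesis genes were examined in mammary tumors of older and younger rats. The 35 genes were picked by symbol from the 26195 named rows of a read count table, and comprise 3 regulators of the sterol regulatory element-binding protein (SREBP) pathway, 15 genes of the fatty acid branch and 17 genes of the sterol branch. All 35 were present in the table, and all 35 passed the filter on low counts that kept 13139 genes for testing. Bulk RNA-seq had been performed on 6 tumors from F344 rats, an inbred strain used in aging and cancer research. All rats carried a 50 mg slow-release pellet of the progestin medroxyprogesterone acetate (MPA, released over 90 days) and received 1 oral dose of the mammary carcinogen 7,12-dimethylbenz[a]anthracene (DMBA, 65 mg per kg). The younger group (n = 3, tumors 157, 158 and 167) was given DMBA at 4 months of age and the older group (n = 3, tumors 102, 107 and 116) at 21 to 23 months. The tumors came from different rats and were sequenced once each. No tumor came from an untreated rat, so the effect of these agents was not measured. Host age could not be told apart from other differences between tumors that arose in rats of different ages. One such difference is the source of the rats. The paper states that the younger rats were virgins bought from Envigo. The older rats were obtained already aged from colonies of the National Institute on Aging, and their breeding history is not given. Source was thus tied to age group, and its part in the results was not tested.

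SREBPs are membrane-bound transcription factors that are held in the endoplasmic reticulum while sterols are plentiful. When sterols run low, the escort protein SCAP carries them to the Golgi, where they are cleaved so that their N-terminal part can enter the nucleus. SREBP-1c, from Srebf1, mainly drives fatty acid synthesis, and SREBP-2, from Srebf2, mainly drives cholesterol synthesis. In the mammary gland, the fatty acid branch is known for its activity in lactation, when secretory epithelial cells make milk fat along with caseins, the main milk proteins. Fat pad adipocytes also make many of these enzymes.

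The libraries held 3394451 to 6383983 counts in named genes. A count of 3, taken as the detection floor, equalled 0.528 to 1.03 CPM in these libraries, and this floor covers counting error only. CPM are counts scaled to a common library size, here adjusted by the trimmed mean of M values (TMM). The lowest count of any of the 35 genes in any tumor was 1, for Tm7sf2. The 5 casein genes together took 0.622% to 15.1% of the counts of a tumor, and the 35 lipid genes took 0.395% to 2.57%. Luminal epithelial markers were detected in every tumor. Tumor 102 stood apart in its proliferation markers, which summed to 126 CPM there and to 629 to 1012 CPM in the other 5 tumors.

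Promoters were taken from RefSeq on the rat assembly GRCr8, as 250 bases before to 50 bases after the start of each gene. Entries were found for 26 of the 35 genes, with 27 promoters because Srebf1 has 2 starts. The counts had been made on another assembly, mRatBN7.2, and no coordinate was carried between the assemblies. The 4 sterol genes Hmgcs1, Fdps, Cyp51 and Msmo1 are printed first because each was lower in the older tumors with DESeq2, a second count test. Thrsp and Scd follow because they had the steepest slopes on casein. Capitals mark CCAAT or its reverse complement ATTGG, the letters bound by the factor NF-Y, which is known to work beside SREBPs.
Hmgcs1 (chr2:53382054-53382353, plus strand): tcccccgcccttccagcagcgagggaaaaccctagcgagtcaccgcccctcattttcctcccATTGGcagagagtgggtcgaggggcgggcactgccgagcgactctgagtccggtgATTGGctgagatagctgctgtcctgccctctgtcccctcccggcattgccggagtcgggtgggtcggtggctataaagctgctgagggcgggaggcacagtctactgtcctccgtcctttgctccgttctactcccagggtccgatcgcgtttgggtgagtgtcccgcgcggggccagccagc
Fdps (chr2:176804767-176805066, minus strand): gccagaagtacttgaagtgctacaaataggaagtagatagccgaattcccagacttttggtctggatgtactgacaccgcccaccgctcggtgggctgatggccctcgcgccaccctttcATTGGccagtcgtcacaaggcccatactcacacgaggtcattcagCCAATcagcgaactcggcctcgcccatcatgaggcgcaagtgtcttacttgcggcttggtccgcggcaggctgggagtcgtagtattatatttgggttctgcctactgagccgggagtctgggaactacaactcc
Cyp51 (chr4:30991443-30991742, plus strand): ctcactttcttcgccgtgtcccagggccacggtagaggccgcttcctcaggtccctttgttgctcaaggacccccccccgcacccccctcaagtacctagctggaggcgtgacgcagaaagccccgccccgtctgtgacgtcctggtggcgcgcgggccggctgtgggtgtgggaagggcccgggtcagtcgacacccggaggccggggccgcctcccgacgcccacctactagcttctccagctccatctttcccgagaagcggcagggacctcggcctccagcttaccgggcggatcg
Msmo1 (chr16:29746863-29747162, plus strand): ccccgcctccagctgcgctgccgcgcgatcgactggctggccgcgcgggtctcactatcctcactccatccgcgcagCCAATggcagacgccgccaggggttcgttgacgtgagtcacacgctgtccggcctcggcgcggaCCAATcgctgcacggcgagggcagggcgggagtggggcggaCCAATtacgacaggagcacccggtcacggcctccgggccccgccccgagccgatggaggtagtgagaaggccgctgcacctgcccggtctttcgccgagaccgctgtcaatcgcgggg
Thrsp (chr1:161138915-161139214, minus strand): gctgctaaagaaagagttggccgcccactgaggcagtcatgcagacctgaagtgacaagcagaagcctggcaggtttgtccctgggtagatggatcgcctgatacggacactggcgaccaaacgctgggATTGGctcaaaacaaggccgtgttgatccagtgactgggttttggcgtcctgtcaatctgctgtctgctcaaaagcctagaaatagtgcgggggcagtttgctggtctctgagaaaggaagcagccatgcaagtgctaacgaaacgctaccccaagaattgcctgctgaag
Scd (chr1:253231682-253231981, minus strand): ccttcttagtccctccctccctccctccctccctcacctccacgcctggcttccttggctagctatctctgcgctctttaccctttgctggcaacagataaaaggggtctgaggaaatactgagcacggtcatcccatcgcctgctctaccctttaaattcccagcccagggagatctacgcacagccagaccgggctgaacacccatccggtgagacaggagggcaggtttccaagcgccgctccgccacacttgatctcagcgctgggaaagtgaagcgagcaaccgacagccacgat
The letters CCAAT, searched on both strands, were present in 22 of the 27 promoters of these genes (81.5%) and in 37.5% of all 33469 RefSeq promoters of the same length. By branch, 11 of 13 sterol promoters (84.6%) and 7 of 10 fatty acid promoters (70.0%) held them. Hmgcs1, Fdps and Msmo1 had 2, 2 and 3 matches, respectively, while Cyp51 and Scd had none. The GC box GGGCGG, bound by Sp1-type factors and also searched on both strands, was present in 21 of the 27 promoters (77.8%) and in 33.1% of all promoters. Neither motif contains the other, although the ends of neighboring matches can share up to 2 bases. The comparison set was not restricted to genes expressed in these tumors or matched for base content. Shares in such a set were not measured. The classical sterol response element TCACNCCAC was found in 0 of the 27 promoters and in 1.12% of all promoters, which says only that these letters were not in this window.

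The 2 branches differed in how they were distributed over the tumors. Averaged over its 15 genes, the fatty acid branch was at a log2 CPM of 7.88, 7.34 and 6.93 in older tumors 102, 107 and 116 and at 7.46, 8.58 and 6.49 in younger tumors 157, 158 and 167. Its highest and lowest values were thus both in younger tumors, and the groups overlapped. Averaged over its 17 genes, the sterol branch was at 3.97, 4.33 and 4.59 in the older tumors and at 5.34, 5.22 and 5.08 in the younger ones. Every older tumor lay below every younger tumor in the sterol branch. The heat map of single genes shows the same arrangement.

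**Figure D1:**
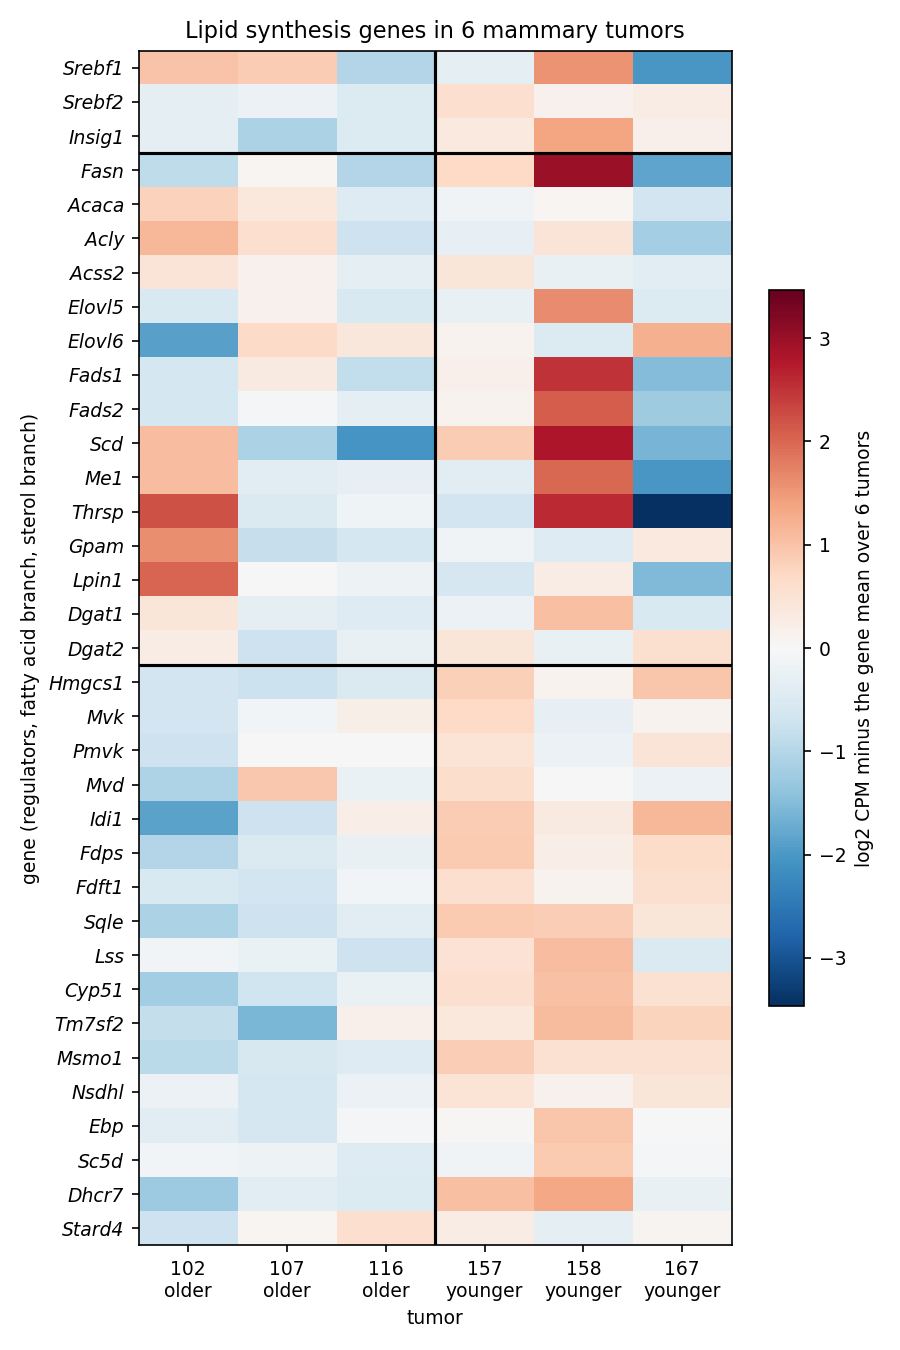
Heat map of the 35 genes (rows, grouped as regulators, fatty acid branch and sterol branch) in the 6 tumors (columns), colored by log2 CPM minus the mean of that gene over the 6 tumors. Most sterol rows are below their mean in the 3 older tumors, whereas many fatty acid rows are highest in younger tumor 158 or older tumor 102.

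To ask whether expression differed by host age, older tumors were compared with younger tumors in edgeR by its quasi-likelihood test. After adjusting over all genes by the Benjamini-Hochberg method, 0 of the 35 lipid genes and 0% of the 13139 tested genes passed the threshold of 0.05, and the lowest adjusted p among the 35 was 0.263. At an unadjusted p under 0.05, edgeR gave 11 of the 35 genes as lower in older tumors and 0 as higher, while 3.29% of all tested genes were lower and 5.3% were higher. Of these 11 genes, 9 belonged to the sterol branch and 2 were regulators. With DESeq2, 5 of the 35 genes passed the adjusted threshold, all lower in older tumors and all in the sterol branch, against 0.817% of all genes in that direction. limma-voom called none of the 35 genes after adjustment, and 0 genes of all those tested.

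In the sterol branch, 16 of 17 genes had a negative log2 fold change (older minus younger), with a median of -0.85 and a range of -1.63 to 0.05. The median over all tested genes was -0.004. In 11 of the 17 genes, all 3 older tumors lay below all 3 younger tumors, against 5.58% of all tested genes. No gene of the branch showed the opposite arrangement, which 6.51% of all tested genes did. The branch mean was 4.30 ± 0.31 log2 CPM in older tumors and 5.21 ± 0.13 in younger tumors (SD, n = 3 each), a difference of -0.92. This corresponds to a 1.89-fold higher level in younger tumors, on the scale of the mean of log2 values.

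**Figure D2:**
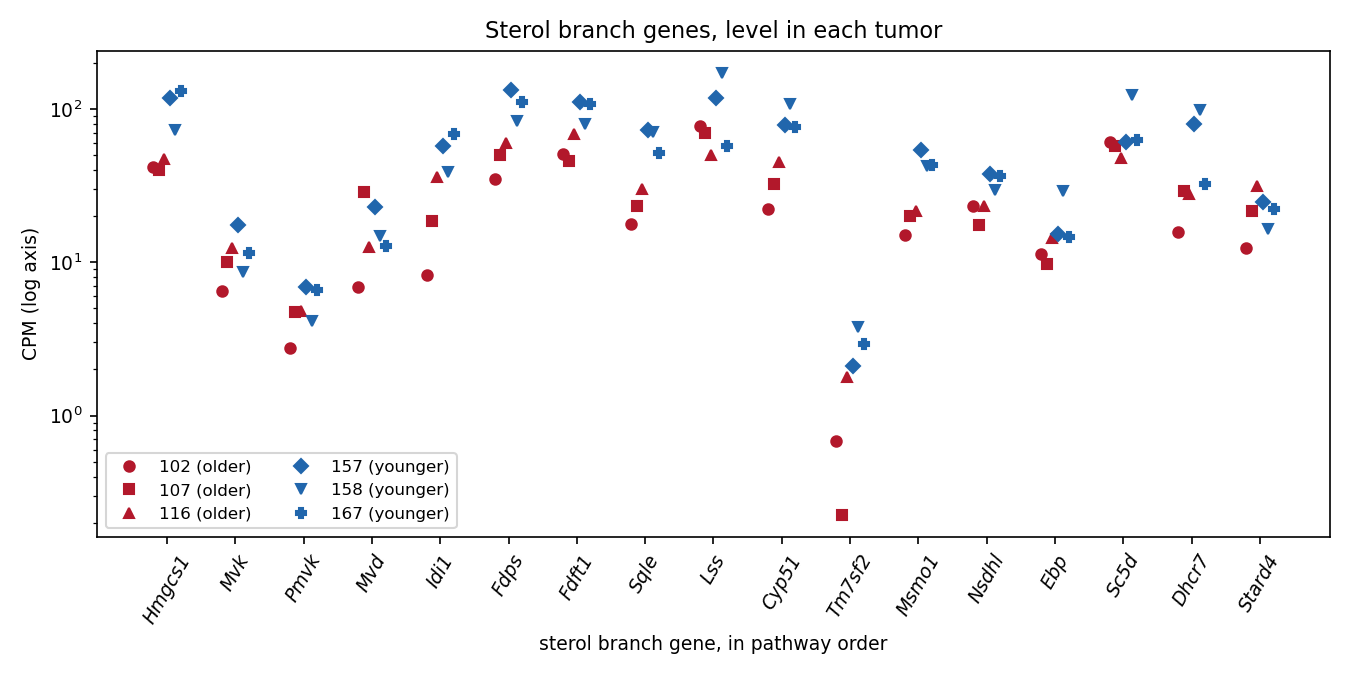
CPM of sterol branch genes in each tumor on a log10 axis, with 1 point per tumor, in red for older and blue for younger tumors. In Sqle, Msmo1, Cyp51, Fdps and Hmgcs1 the 3 older points all sit below the 3 younger points, and in Stard4 they interleave.

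The mevalonate steps, which make isoprenoid units from acetyl-CoA, were mixed. Hmgcs1, the synthase that condenses acetyl-CoA with acetoacetyl-CoA, was at 41.8, 39.6 and 47.1 CPM in older tumors 102, 107 and 116 and at 118, 73.1 and 131 CPM in younger tumors 157, 158 and 167. The groups did not overlap, and the older tumors lay within a narrow range. Its log2 fold change was -1.32 (SE 0.28), with an adjusted p of 0.268 in edgeR and 0.00602 in DESeq2. Idi1, the isomerase that makes dimethylallyl diphosphate, was at 8.23, 18.6 and 35.9 CPM in the older tumors and at 57.0, 38.5 and 68.6 CPM in the younger ones. Here the nearest tumors of the 2 groups, 116 and 158, were almost level. Fdps, the farnesyl diphosphate synthase, was at 34.6, 50.0 and 59.8 CPM in older and 133, 83.4 and 111 CPM in younger tumors, again without overlap. The fold change of Fdps was -1.18 (SE 0.29), with an adjusted p of 0.315 in edgeR and 0.033 in DESeq2. The 3 intervening kinase and decarboxylase genes overlapped between the groups. Mvk, the mevalonate kinase, ranged from 6.51 to 12.4 CPM in older and from 8.65 to 17.4 CPM in younger tumors. Pmvk, the phosphomevalonate kinase, ranged from 2.74 to 4.79 and from 4.14 to 6.87 CPM, so both kinases had low counts. Mvd, the decarboxylase that yields isopentenyl diphosphate, was at 28.7 CPM in older tumor 107, the highest value of all 6 tumors. Its fold change of -0.07 (SE 0.53) turned positive when tumor 102, 116 or 157 was left out.

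The steps from squalene to lanosterol and its demethylation included the 2 lowest adjusted p-values of the 35 genes, those of Sqle and Msmo1. Sqle, the squalene epoxidase and a rate-limiting enzyme of the later pathway, was at 17.8, 23.1 and 30.1 CPM in older tumors and at 72.9, 70.4 and 51.4 CPM in younger tumors. The 2 groups did not overlap, and tumor 102 was the lowest of the 6. Sqle had a log2 fold change of -1.45 (SE 0.29), with an adjusted p of 0.263 in edgeR and 0.00291 in DESeq2. Cyp51, the lanosterol 14-alpha-demethylase, was at 22.3, 32.4 and 44.7 CPM in older and 78.7, 107 and 75.9 CPM in younger tumors, a log2 fold change of -1.39 (SE 0.32). Msmo1, the sterol C4-methyl oxidase, was at 15.1, 19.9 and 21.5 CPM in older and 53.5, 42.3 and 42.8 CPM in younger tumors, a log2 fold change of -1.29 (SE 0.26). Neither gene overlapped between the groups, and DESeq2 gave adjusted p-values of 0.0119 and 0.0043, respectively, where edgeR gave 0.290 and 0.265. Fdft1, the squalene synthase, was at 50.7, 45.7 and 68.2 CPM in older and 110, 80.2 and 108 CPM in younger tumors, also without overlap. Lss, the lanosterol synthase, was different from its neighbors in the pathway, since younger tumor 167 (57.5 CPM) lay within the older range of 49.6 to 76.8 CPM.

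Of the later enzymes, Nsdhl, Dhcr7, Ebp and Tm7sf2 did not overlap between the groups and Sc5d did. Dhcr7, which carries out the last step to cholesterol, was at 15.8, 29.0 and 27.7 CPM in older and 79.6, 98.4 and 32.4 CPM in younger tumors. Younger tumor 167 was close to the older tumors in this gene, and the log2 fold change was -1.53 (SE 0.45), with an adjusted p of 0.364 in edgeR. Nsdhl, a sterol C4 dehydrogenase, ranged from 17.4 to 23.3 CPM in older and from 29.7 to 37.3 CPM in younger tumors. Ebp, the sterol isomerase, ranged from 9.73 to 14.4 CPM in older and from 14.5 to 29.2 CPM in younger tumors, so the groups all but touched. Tm7sf2, a sterol C14 reductase, was counted 2, 1 and 9 times in older and 12, 21 and 12 times in younger tumors, and its fold change of -1.63 (SE 0.73) rested on these few reads. Sc5d, the lathosterol oxidase, was at 47.7 to 61.0 CPM in older tumors and at 60.6 to 122 CPM in younger tumors. Stard4, which transports cholesterol rather than making it, was the single gene of the branch with a positive fold change (0.05, SE 0.38), and its sign turned when tumor 116 or 158 was left out.

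Summed markers of several cell types also lay apart by age group. The 4 luminal epithelial markers analysed (of 5 listed) summed to 1133, 1186 and 1224 CPM in older tumors 102, 107 and 116 and to 1723, 1473 and 1615 CPM in younger tumors 157, 158 and 167, with none at 0. The 5 macrophage markers summed to 123 to 274 CPM in older and 58.7 to 108 CPM in younger tumors, with none at 0. The 4 T cell markers summed to 5.83 to 13.2 CPM in older and 2.16 to 4.05 CPM in younger tumors, with Cd3d at 0 in tumors 102 and 158. None of these 3 marker sums overlapped between the age groups, although none of the 4 luminal markers reached an unadjusted p under 0.05 in edgeR and 1 of the 4 T cell markers passed the filter on low counts, and in bulk tissue fewer cells of a type and less RNA per cell cannot be told apart. Of the luminal markers, Krt18 and Cdh1 overlapped between the age groups. Of the 5 macrophage markers, 3 lay higher in every older tumor, and Cd163 and Mrc1 overlapped. Tumor 102 held 59.3 CPM of Cd163 and 77.1 CPM of Mrc1, against 1.97 to 4.75 and 9.34 to 23.2 CPM in the other tumors. After subtracting the log2 luminal sum, the sterol branch was at -6.18, -5.89 and -5.67 in older tumors 102, 107 and 116. It was at -5.41, -5.30 and -5.57 in younger tumors 157, 158 and 167. The nearest tumors of the groups were then 116 and 167, and the difference was -0.48 in place of -0.92. The part of luminal cells, macrophages and T cells in the result was not tested. Without tumor 102, 9 sterol genes were lower at an unadjusted p under 0.05, and the branch difference was -0.76.

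Among the regulators, Srebf2 and Insig1 lay lower in older tumors and Srebf1 did not. Srebf2, which encodes SREBP-2, was at 163, 177 and 146 CPM in older tumors and at 303, 228 and 245 CPM in younger tumors. Insig1, a sterol-responsive protein that retains SCAP in the endoplasmic reticulum, was at 41.5, 24.0 and 37.1 CPM in older and 65.5, 133 and 58.7 CPM in younger tumors. Neither gene overlapped between the groups, and the log2 fold changes were -0.67 (SE 0.23) and -1.33 (SE 0.39), with adjusted p-values of 0.451 and 0.364 in edgeR. Srebf1 was at 2210.3, 2051 and 548 CPM in older tumors and at 880.3, 3273 and 275 CPM in younger tumors. The range within each group was far wider than the difference between the groups, whose log2 fold change was 0.12 (SE 0.88), and 4 of the 6 fits that left out a tumor turned its sign.

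The fatty acid branch as listed here showed no arrangement by age. Fatty acid genes outside this list, of which some lay apart by age group, are given further below. Of the 15 genes of the branch, 10 had a negative and 5 a positive log2 fold change, with a median of -0.39 and a range of -2.24 to 1.44. None reached an unadjusted p under 0.05 in edgeR, and in none did all older tumors lie on one side of all younger tumors. The branch mean was 7.38 ± 0.48 log2 CPM in older and 7.51 ± 1.04 in younger tumors (SD, n = 3 each), a difference of -0.12 that was smaller than either SD. It turned positive without older tumor 116 (0.10) and without younger tumor 158 (0.41), and also after subtracting the log2 luminal sum (0.31). The 2 ends of the range were Fasn, with a log2 fold change of -2.24 (SE 1.05), and Lpin1, with 1.44 (SE 0.69). Both had an adjusted p above 0.6 in edgeR, at 0.636 and 0.650.

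**Figure D3:**
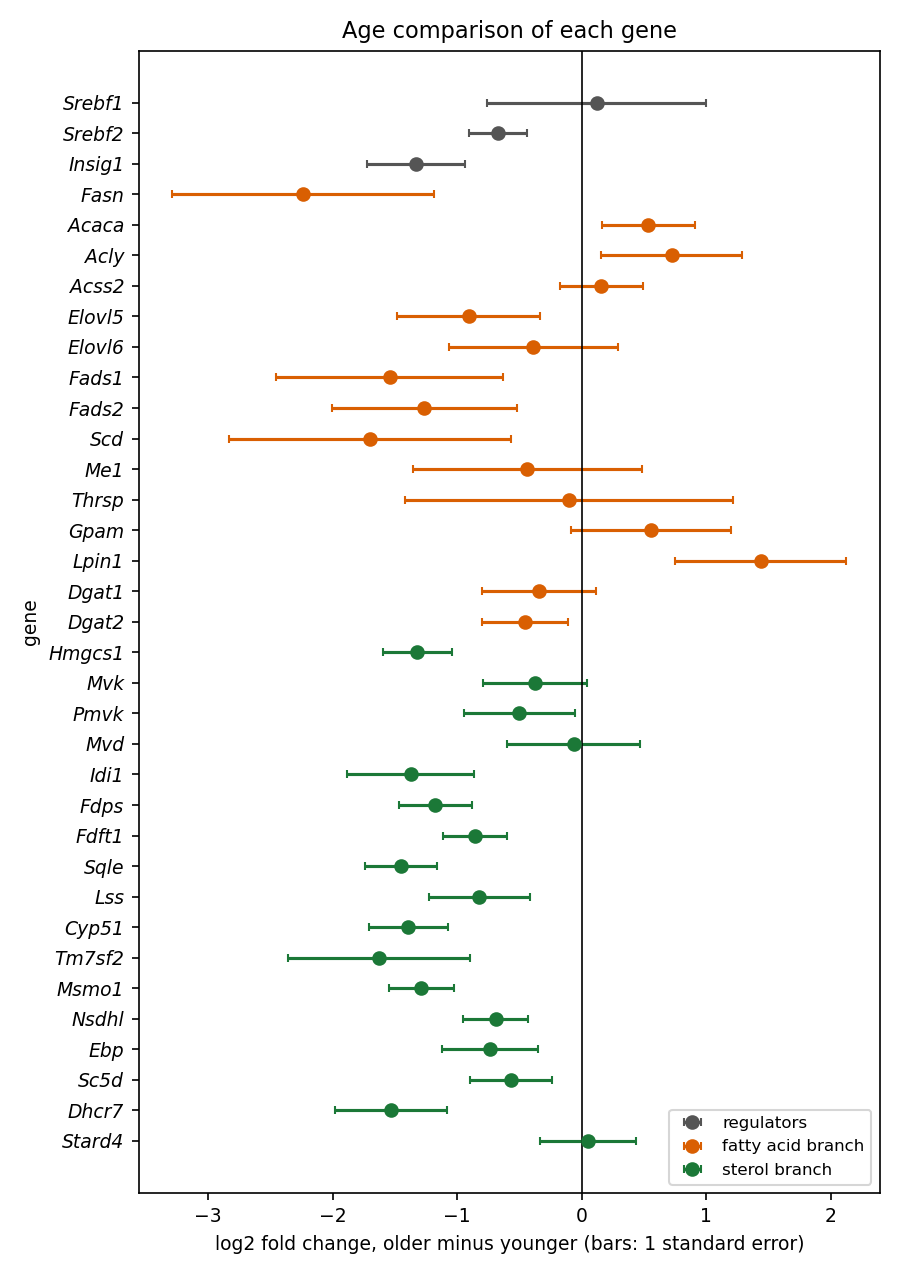
Log2 fold change, older minus younger, of each of the 35 genes with its standard error from edgeR, colored by group. Sterol genes lie from -1.63 to 0.05 and fatty acid genes from -2.24 to 1.44, and the widest error bars are those of the fatty acid genes Thrsp (SE 1.32), Scd (SE 1.13) and Fasn (SE 1.05).

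The fatty acid branch was instead higher in tumors with more casein. Summed casein was at 157227, 124850.0 and 39200 CPM in older tumors 102, 107 and 116 and at 26806, 173216 and 5550.2 CPM in younger tumors 157, 158 and 167. It thus spanned a 31.2-fold range that ran across both age groups. Over the 6 tumors, the fatty acid branch mean had a Pearson's r of 0.82 and a Spearman's rho of 0.83 with log2 casein. Without the 2 tumors farthest from the median casein level, 167 and 157, r was 0.83 over the other 4. The sterol branch mean had an r of -0.48 and a rho of -0.31, and an r of 0.02 without these 2 tumors. These coefficients describe 6 libraries in which all values share 1 depth and 1 scaling, and a casein share of up to 15.1% of the counts enters that scaling.

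**Figure D4:**
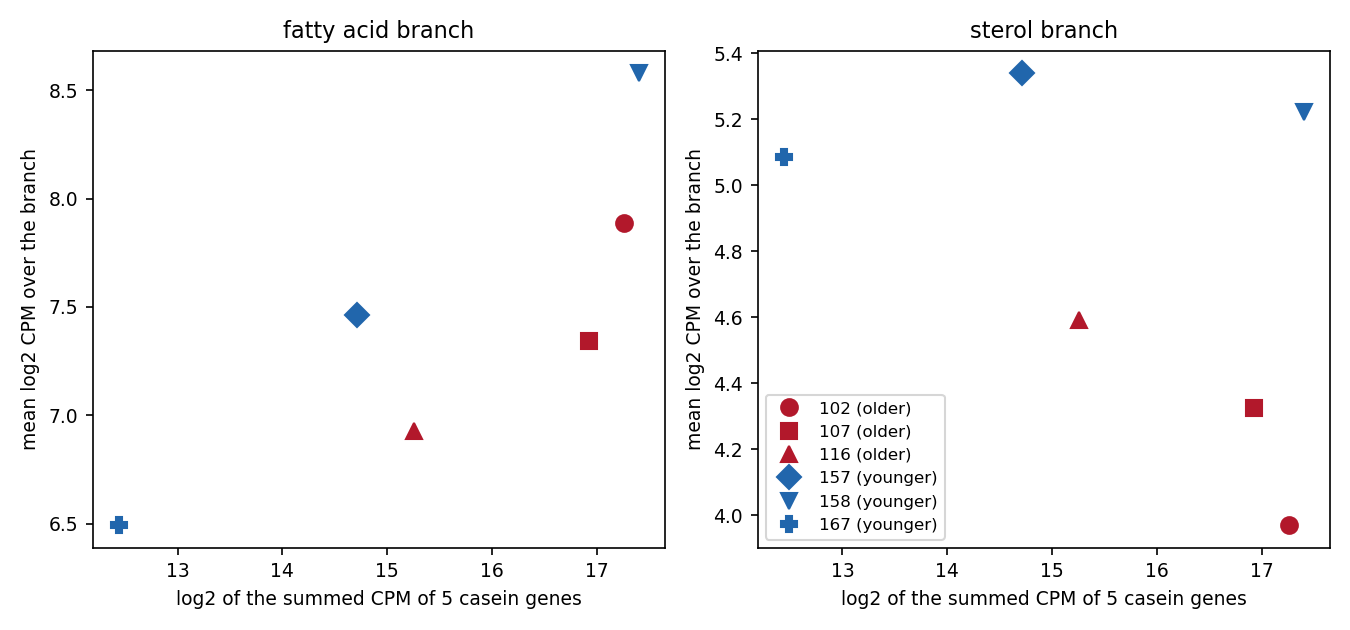
Mean log2 CPM of the fatty acid branch and of the sterol branch against log2 summed casein CPM, 1 point per tumor, with a symbol for each tumor, red for older and blue for younger. Fatty acid values run from 6.49 in tumor 167 to 8.58 in tumor 158, the tumors with the least and the most casein, while sterol values are set apart by age group.

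Slopes on log2 casein were then fitted with edgeR, with age group in the model, so that each slope describes tumors within an age group. After adjustment over all genes, 0 of the 35 lipid genes passed, with a lowest adjusted p of 0.0941 for Srebf1, and 0.00761% of the 13134 genes tested passed. The single gene that did was Lpo, which encodes lactoperoxidase, a milk enzyme (adjusted p = 0.0452 in edgeR). At an unadjusted p under 0.05, edgeR gave 13 of the 35 genes a positive slope and 0 a negative one. Of all genes tested, 6.51% had such a positive slope and 3.97% a negative one. The 13 genes were 10 of the 15 fatty acid genes, 2 of the 17 sterol genes and Srebf1. The median slope was 0.41 in the fatty acid branch, -0.04 in the sterol branch and -0.005 over all genes, in log2 units per doubling of casein. With the casein genes left out before scaling, these medians were again 0.41, -0.04 and -0.005. With DESeq2, 10 of the 35 genes passed the adjusted threshold, all with a positive slope, against 2.23% of all genes in that direction. They were Srebf1, Fasn, Acly, Elovl5, Fads1, Fads2, Scd, Me1, Thrsp and Lss. limma-voom called none of the 35 genes, and 0 genes of all those tested. With 6 tumors and 3 fitted coefficients, each slope rested on few degrees of freedom, and 7 to 10 fatty acid genes had an unadjusted p under 0.05 in edgeR when any single tumor was left out.

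Srebf1 had a slope of 0.77 (SE 0.10), or a 1.70-fold higher level per doubling of casein. Its order in the older tumors (102, 107, 116) and in the younger tumors (158, 157, 167) was that of casein. The same order in both age groups was found in 7 of the 35 genes, of which 5 were fatty acid genes (Acaca, Acly, Scd, Lpin1 and Dgat1), 1 was the sterol gene Lss and 1 was Srebf1. Of all genes tested, 5.53% had this order.

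Of the enzymes that supply and build palmitate, Acly and Fasn had a positive slope and Acss2 and Acaca did not reach the threshold. Acly, the ATP citrate lyase that releases acetyl-CoA from citrate, was at 1486, 1012 and 409 CPM in older and 549, 919 and 296 CPM in younger tumors, so that its order was that of casein in both groups. Its slope was 0.41 (SE 0.11). Fasn, the fatty acid synthase itself, was at 984, 1889.7 and 892 CPM in older tumors and at 2924, 14309.8 and 505 CPM in younger tumors. Tumor 158 thus held 28.3 times the level of tumor 167, and the slope was 0.86 (SE 0.16). In the older group, however, Fasn was highest in tumor 107, which did not have the most casein. Acaca, the acetyl-CoA carboxylase that makes malonyl-CoA, was at 620.4, 462 and 262 CPM in older and 328, 373 and 227 CPM in younger tumors, a 2.74-fold range in all, with a slope of 0.21 (SE 0.10). Acss2, which makes acetyl-CoA from acetate, spanned only 22.9 to 41.1 CPM. Me1, the malic enzyme that supplies NADPH, was at 619.8, 224 and 239 CPM in older and 225, 1167 and 71.8 CPM in younger tumors, with a slope of 0.76 (SE 0.13).

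Thrsp had the steepest slope of the 35 genes. It encodes a small nuclear protein of lipogenic tissues, Spot 14, that is known for its role in milk fat synthesis. Thrsp was at 906, 137 and 175 CPM in older tumors and at 123, 1168 and 17.2 CPM in younger tumors, a 67.9-fold range. Its slope was 1.17 (SE 0.20), or a 2.25-fold higher level per doubling of casein, with an adjusted p of 0.129 in edgeR. Tumors 102 and 158 were high in this gene, 1 from each age group.

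Scd, Fads1 and Fads2, the desaturases of the fatty acid branch, also had positive slopes on casein. Scd, the delta-9 desaturase that makes oleate, was at 637, 142 and 72.4 CPM in older and 556, 2110.2 and 99.3 CPM in younger tumors, with a slope of 0.97 (SE 0.17). Reads of Scd and of its close paralog Scd2 may be hard to assign to one of them, so the level of Scd is uncertain to that degree. Scd2, listed outside the branch, lay above Scd in every tumor but 102. Its casein slope was 0.18 (SE 0.19), with an unadjusted p of 0.359 in edgeR, so a positive slope was not shown for this paralog. Fads3, also listed outside the branch, had a slope of 0.37 (SE 0.09), with an unadjusted p of 0.00555 in edgeR. Fads1, the delta-5 desaturase of polyunsaturated fatty acids, was at 347, 656 and 289 CPM in older and 590.4, 2985 and 184 CPM in younger tumors. Fads2, the delta-6 desaturase, was at 136, 198 and 168 CPM in older and 226, 893 and 87.5 CPM in younger tumors. The 2 genes had the same order in the younger tumors, and their slopes were 0.75 (SE 0.13) and 0.56 (SE 0.13). With tumor 158 left out, these slopes were 0.57 and 0.29. For Fads2, the highest unadjusted p of the slope in edgeR when single tumors were left out was 0.206. Both were highest in tumor 158, and without it their fold change by age turned from negative to positive, at 0.16 and 0.10.

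The elongases went separate ways. Elovl5, which elongates polyunsaturated fatty acids, was at 130, 208 and 131 CPM in older and 158, 585 and 136 CPM in younger tumors, with a slope of 0.39 (SE 0.10). That slope was 0.12 with tumor 158 left out. The highest unadjusted p of the slope in edgeR when single tumors were left out was 0.503. Elovl6, which elongates palmitate to stearate, was at 5.48, 34.2 and 28.3 CPM in older and 23.6, 15.3 and 51.1 CPM in younger tumors. It was lowest in the high-casein tumor of each age group, and its slope of -0.36 (SE 0.18) had an unadjusted p above the threshold. With the other 14 genes of its branch, Elovl6 had an r of -0.75 over the 6 tumors, the lowest of the branch.

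The acyltransferases and the phosphatase that assemble triglycerides were mixed. Lpin1, the phosphatidate phosphatase lipin, was at 285, 70.8 and 62.4 CPM in older and 46.5, 83.4 and 23.8 CPM in younger tumors, with a slope of 0.45 (SE 0.16). Dgat1, which adds the last acyl chain, was at 78.2, 45.9 and 42.7 CPM in older and 50.3, 120.0 and 40.3 CPM in younger tumors, with a slope of 0.32 (SE 0.08). Both had the casein order in each age group. The slope of Lpin1 was 0.34 with tumor 102 left out, and that of Dgat1 was 0.23 with tumor 158 left out. Dgat2, which catalyzes the same reaction, was instead lowest in tumor 107 (27.8 CPM) and highest in tumor 167 (67.3 CPM), and its slope was -0.12 (SE 0.11). Gpam, the mitochondrial acyltransferase of the first step, was at 653 CPM in tumor 102 and at 123 to 268 CPM in the other 5 tumors. Its slope was -0.004 (SE 0.22), and without tumor 102 its fold change by age turned from 0.55 to -0.67.

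In the sterol branch, Lss and Sc5d were the 2 genes with a positive casein slope at an unadjusted p under 0.05 in edgeR. Lss was at 76.8, 69.7 and 49.6 CPM in older and 117, 171 and 57.5 CPM in younger tumors, with a slope of 0.31 (SE 0.07). Sc5d was highest in younger tumor 158 (122 CPM), with a slope of 0.19 (SE 0.07) that was 0.06 with this tumor left out. The slopes of the other 15 genes lay between -0.27 (Idi1) and 0.22 (Dhcr7). Set against each other, the sterol mean minus the fatty acid mean was -3.92, -3.02 and -2.34 in older tumors 102, 107 and 116 and -2.12, -3.35 and -1.41 in younger tumors 157, 158 and 167, so that within each age group the balance was lowest in the tumor with the most casein and highest in the tumor with the least.

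**Figure D5:**
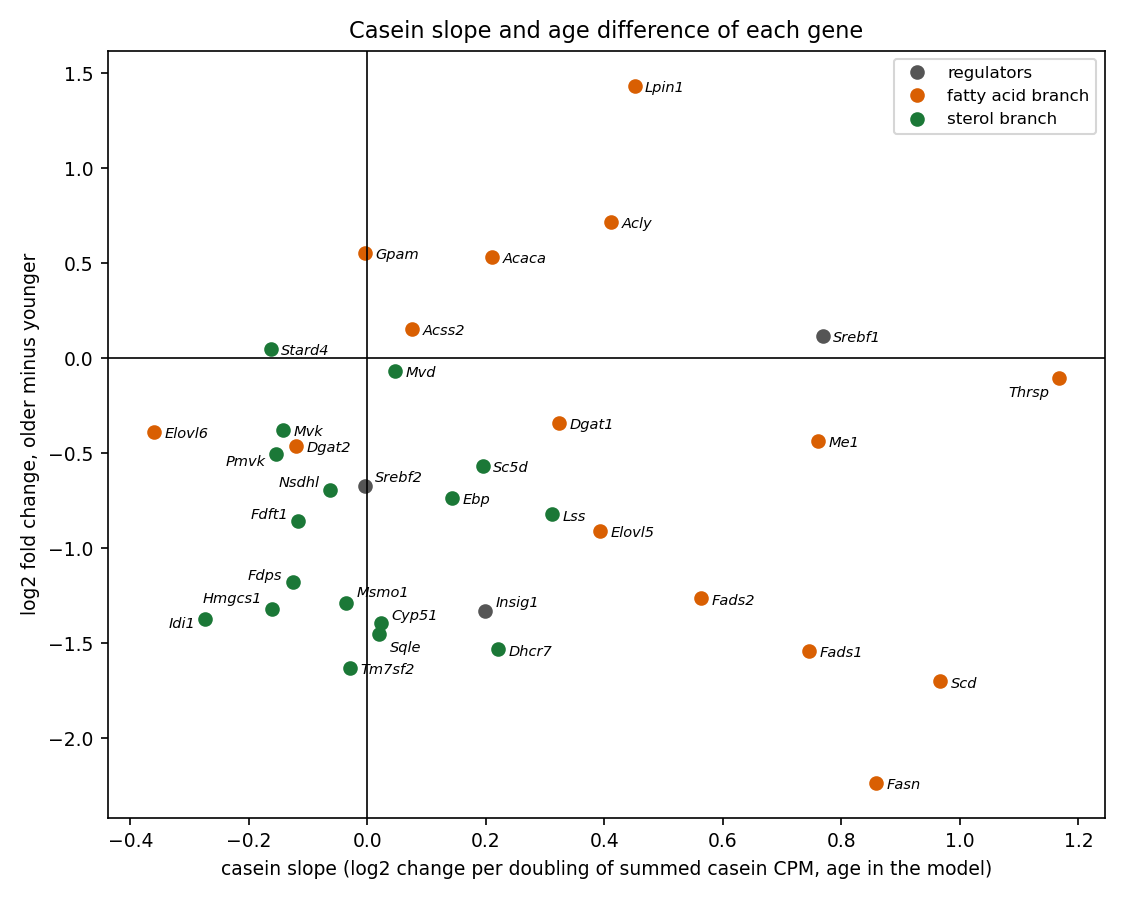
Log2 fold change, older minus younger (vertical axis), against the slope on log2 casein with age in the model (horizontal axis), 1 point for each of the 35 genes. Most sterol genes are spread along the vertical axis near a slope of 0, whereas fatty acid genes extend to slopes of 0.86 (Fasn), 0.97 (Scd) and 1.17 (Thrsp).

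Milk genes other than the caseins were fitted as well. Of 6 listed, 4 had a positive slope at an unadjusted p under 0.05 in edgeR, against 6.51% of all genes. They were Wap (a whey protein), Xdh and Btn1a1 (proteins of milk fat globule secretion) and Plin2 (a lipid droplet coat protein). Their slopes were 1.63, 0.71, 0.71 and 0.66, respectively. Lalba (0.48, SE 0.31) and Glycam1 (0.64, SE 0.35) did not reach that level. Slopes on adipocyte markers were fitted in the same way. The 6 adipocyte markers summed to 65.1, 43.9 and 16.0 CPM in older and 14.8, 18.4 and 12.8 CPM in younger tumors, Lep was at 0 in tumors 116 and 157, and Retn was at 0 in tumor 116. Only 3 of these 6 markers passed the filter on low counts. Adipoq was counted 9, 8 and 2 times in younger tumors 157, 158 and 167, so the sums and their order rested on few reads. Among the younger tumors the sum ranged from 12.8 to 18.4 CPM and Fasn from 505 to 14309.8 CPM. Both were highest in tumor 158 and lowest in tumor 167. After adjustment, edgeR gave a slope on the adipocyte sum for 0 of the 35 genes and 0% of the 13136 genes tested. At an unadjusted p under 0.05, 4 of the 15 fatty acid genes (Acaca, Acly, Scd and Lpin1) had a positive slope, against 4.06% of all genes. Negative slopes were found for 2 sterol genes, Idi1 and Stard4, against 3.9% of all genes. Within each age group the adipocyte sum ranked the tumors in the same order as casein (102, 107, 116 and 158, 157, 167). Older tumors 102 and 107 had the highest adipocyte sums. In tumor 107 that sum rested mostly on Lep (24.9 of 43.9 CPM), and Adipoq was counted there at the floor of 3 reads. With the same order in each age group, slopes on casein and on adipocyte markers could not be told apart by order. The part of adipocytes in the casein slopes was not tested beyond these fits.

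The genes of each branch also varied with each other to different degrees. The median Pearson's r over the 105 pairs of fatty acid genes was 0.37, and it was 0.54 after subtracting the mean of each age group. Over the 136 pairs of sterol genes it was 0.62, and 0.30 after that subtraction. Between the branches, the median over 255 pairs was -0.07, and -0.27 after that subtraction. Sqle (0.99), Msmo1 (0.98), Cyp51 (0.97) and Fdps (0.95) had the highest r with the mean of the other sterol genes, and Mvd (0.33) and Stard4 (0.34) the lowest. In the fatty acid branch, Me1 (0.94), Dgat1 (0.94) and Scd (0.89) were closest to the mean of the others and Gpam (0.01) was among the farthest. These coefficients each describe 6 tumors and carry no p.

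Tested genes outside all lists were also ranked by their r with each branch mean over the 6 tumors. Most like the fatty acid mean were Gpr155 (r = 0.998), Lpo (0.995), Man2b1 (0.992), Angel1 (0.991) and Slc27a4 (0.991). These are the highest values picked from many genes over 6 tumors, and they carry no p. Lpo was at 143, 56.6 and 14.8 CPM in older and 81.1, 1137 and 4.67 CPM in younger tumors. Most like the sterol mean, among the same genes and picked in the same way, were Lad1 (0.989), Lpar4 (0.987), Plk5 (0.987), Atp9a (0.984) and Reep4 (0.982). Lad1, which encodes the filament-associated protein ladinin-1, was at 21.6, 41.2 and 45.1 CPM in older and 108, 90.2 and 85.3 CPM in younger tumors.

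Further genes of the same pathways, outside the 35, were counted in the same fits. On the fatty acid side, 20 of 21 listed genes were tested, of which 5 were lower at an unadjusted p under 0.05 (Acsl3, Elovl7, Scd2, Slc25a1 and Pnpla3) and 1 was higher (Acsl1), against 3.29% and 5.3% of all genes, respectively. In 4 of the 20 (Acsl3, Elovl7, Scd2 and Oxsm), all older tumors lay below all younger tumors, against 5.58% of all genes. The opposite arrangement was found in 0 of the 20, against 6.51% of all genes. Acsl3, an acyl-CoA synthetase of lipid droplets, was at 94.3, 58.2 and 54.8 CPM in older and 117, 217 and 182 CPM in younger tumors. Scd2, the Scd paralog, was at 363, 2015 and 1132 CPM in older and 2747, 5093 and 2312 CPM in younger tumors, so that it was lower in every older tumor where Scd itself overlapped. By casein, 6 of these 20 genes had a positive and 1 a negative slope at an unadjusted p under 0.05, against 6.51% and 3.97% of all genes. Of 10 listed regulators and targets of the pathway, 8 were tested. At an unadjusted p under 0.05 in edgeR, 1 was higher in older tumors, against 5.3% of all genes, and 0 were lower. This was Abca1, the cholesterol exporter induced by liver X receptors, at 759, 257 and 438 CPM in older and 141, 276 and 89.5 CPM in younger tumors. Its log2 fold change was 1.52 (SE 0.53), with an overlap of tumors 107 and 158. Abcg1 (0.86, SE 0.38) and Mylip (0.64, SE 0.44), listed with it, did not reach that level by age. By casein, 3 of the 8 tested genes had a positive slope at an unadjusted p under 0.05 in edgeR, against 6.51% of all genes. They were Abca1 (0.31), Abcg1 (0.25) and Mylip (0.26), and 0 of the 8 had such a negative slope. The lowest adjusted p of a casein slope among the 8 was 0.374 in edgeR. Scap lay lower in every older tumor, at 91.2 to 136 CPM against 147 to 172 CPM. It was the 1 gene of the 8 with this arrangement, which 5.58% of all genes had. The unadjusted p of Scap by age was 0.0608 and the adjusted p 0.613 in edgeR.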

How the data were processed

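Mammary tumors of 3 older and 3 younger rats were profiled by RNA-seq, 1 library per tumor. The authors checked reads with FastQC 0.11.7, trimmed them with Trimmomatic 0.38, aligned them to mRatBN7.2 with STAR 2.7.9a, marked duplicates with Picard 2.18.12 and deposited HTSeq 0.13.5 read counts per gene, without normalization. The strand setting of the counting is not given in the sources used here, so reads from a gene and an overlapping antisense gene could not be told apart. The labels give polyA RNA and reads of 100 bases, whereas the protocol gives rRNA depletion and reads of 150 bases. Samples were grouped by the age class in the labels, and tumor columns were matched by tumor ID.

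Of 30562 rows, 4367 had no gene name; these held 2.17% to 3.64% of the counts and were left out. The remaining counts were analyzed in R 4.3.3 with edgeR 4.0.16: filterByExpr by age group, TMM scaling, and the quasi-likelihood F test of age, or of the slope on log2 summed casein or adipocyte marker CPM with age as a covariate. P values were adjusted by the Benjamini-Hochberg method over all tested genes at a threshold of 0.05. Standard errors were derived from the fold change and the F value, a prior count of 2 was used for log2 CPM, and the scripts were tested on simulated data. Marker genes were removed from the genes tested against their own sum. Alternatives were DESeq2 1.42.0, limma-voom (limma 3.58.1), other scalings and filters, and leaving out each tumor. Branch means are means of log2 CPM and were given no test. The named genes are all 35 members. Further genes come from fixed lists of the pathway and of cell types, or are the 5 tested genes outside all lists most correlated with each branch mean. Lpo is also named as the only gene past its threshold. The members and lists were chosen with earlier results of these data known. For single genes, 3 tumors against 3 allow no two-sided exact permutation p below 0.1. Where nothing says that libraries were replicated, p values measure the spread between these tumors. Authors' own comparisons were not used. The list of further sterol genes is not reported here.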

Additional observations from a re-analysis of the deposited data

How the results depend on the processing

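The sterol branch difference by age kept its direction under every alternative run, from -1.07 to -0.76 without single tumors, and was -0.48 relative to luminal markers, an alternative chosen after seeing the data. By DESeq2, 326 genes differed by age (219 higher and 107 lower in older tumors), among them 5 of the 35 lipid genes, where edgeR called 0. Genes following casein numbered 1 with edgeR, 0 with library totals alone, 381 with DESeq2, 0 with limma-voom, 31 with all genes of at least 1 count, 3 without the age term and 0 to 31 without single tumors. Lipid genes among them numbered 0 with edgeR, 10 with DESeq2, 1 with all genes of at least 1 count (Srebf1) and 0 to 4 without single tumors, the 4 being Fads1, Fasn, Scd and Srebf1 without tumor 102, and Thrsp alone without tumor 107. Genes following adipocyte markers numbered 0 with edgeR, 98 with DESeq2, 2 without the age term and 0 to 1 without single tumors, with 0 lipid genes in every fit. At an unadjusted p under 0.05, 1129 genes differed by age with edgeR, 1319 with DESeq2 and 888 with limma-voom. Library totals alone moved the split of casein slopes at that level from 855 positive and 522 negative to 397 and 1369, with the median slope over all genes going from -0.005 to -0.103, and the split of adipocyte slopes to 186 and 709. Fold changes by age that turned their sign were those of Me1 (0.30) and Thrsp (1.08) with limma-voom. Without single tumors the sign turned, with ranges, for Srebf1 (-0.38 to 1.48), Acss2 (-0.041 to 0.45), Elovl5 (-1.26 to 0.091), Elovl6 (-0.80 to 0.23), Fads1 (-2.06 to 0.16), Fads2 (-1.75 to 0.10), Me1 (-1.10 to 1.28), Thrsp (-1.51 to 2.54), Gpam (-0.67 to 0.93), Dgat1 (-0.68 to 0.29), Mvd (-0.78 to 0.28) and Stard4 (-0.32 to 0.32). The causes of these changes were not tested. No paired analysis was possible because each tumor is from its own rat and the age groups share no replicate numbers. Depth limited Tm7sf2 and Pmvk most.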

Other observations

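Genes of milk and of the tumor stroma outside the pathway also differed among the tumors. Glycam1, a mucin-like milk protein gene, was at 4052, 1153 and 86.3 CPM in older tumors 102, 107 and 116 and at 32.2, 45.9 and 12.8 CPM in younger tumors 157, 158 and 167, without overlap, at a log2 fold change of 5.86 (SE 1.33) and an adjusted p of 0.290 in edgeR. Its high values were in the 2 older tumors with the most casein, whereas younger tumor 158, which had the most casein of all, was low in it. Fibroblast markers summed to 979 CPM in tumor 102 and to 103 CPM in tumor 107, and to 100 to 798 CPM in the younger tumors, so the groups overlapped. Skeletal muscle markers summed to 5.98 to 54.1 CPM in older and 16.5 to 25.4 CPM in younger tumors, also with overlap.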
